A study of Homo sapiens with 28 samples.

Results

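The genes described here are the classical axon guidance ligands and their receptors, measured by RNA sequencing in SK-N-MC cells, an established Ewing sarcoma line. They were chosen by gene symbol, with earlier results of these data known, and comprise the secreted and membrane semaphorins of classes 3 to 7, plexins, neuropilins, ephrins, Eph receptors, netrins with DCC and the UNC5 receptors, SLITs and ROBOs. Of the 35488 genes in the deposited table, 67 had such a symbol, 34 of them ligands and 33 receptors. By family these were 20 semaphorins, 9 plexins, 2 neuropilins, 5 ephrin-A ligands, 3 ephrin-B ligands, 9 EphA and 5 EphB receptors, 3 netrins, 5 netrin receptors, 3 SLITs and 3 ROBOs. A mean of at least 10 normalised reads over all 28 libraries was reached by 59 of the 67, and these were tested.

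Guidance cues are extracellular proteins that attract or repel growing axons and migrating cells through receptors on the cell surface. Semaphorins act mainly through plexins, with neuropilins as co-receptors for most class 3 semaphorins, and ephrins act through Eph receptor tyrosine kinases on neighbouring cells. Netrins attract through DCC and repel through the UNC5 receptors, and SLITs repel through ROBO receptors. Several of these receptors, DCC and the UNC5 family among them, are also known as dependence receptors, which can promote cell death when their ligand is absent.

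All cells carried a short hairpin RNA that was switched on by doxycycline at 100 ng/ml, controls included. The hairpins were shFLI1, which silences the EWS-FLI1 fusion, the oncogenic transcription factor of Ewing sarcoma, shCHD4#1 and shCHD4#2, which target CHD4, the ATPase of the NuRD chromatin remodelling complex, and the control shScramble. Each knockdown hairpin had 3 libraries at 48 h and 3 at 24 h, and shScramble had 5 at each time, all of 1 cell line and called biological replicates in the labels. In the 48 h shScramble samples the genotype field reads as a CHD4 knockdown whereas title and treatment name the control hairpin; the grouping used here follows the title.

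FLI1 averaged 1669 ± 141 normalised reads with shFLI1 and 3783 ± 454 with shScramble at 48 h (SD, n = 3 and 5), a log2 fold change of -1.17, and the 24 h value was -1.16; these reads do not separate the fusion from FLI1. CHD4 was lower at log2 -1.86 and -1.95 with shCHD4#1 at 48 and 24 h and at -2.07 and -1.91 with shCHD4#2, and the 48 h shScramble libraries averaged 11605 ± 1563 reads, close to the 11550.1 ± 1236 at 24 h. FLI1 was also lower with shCHD4#2 at 48 h, at log2 -0.34 (limma adjusted p = 0.0291). The summed level of 8 Ewing sarcoma marker genes was 13272 to 13841 with shFLI1, 33701 to 42075 with shCHD4#1, 23885 to 33777 with shCHD4#2 and 39036 to 52968 with shScramble at 48 h, and all 8 were detected. The libraries fell into sets by their share of reads on processed pseudogenes, 0.313 to 0.388% in 12 libraries (the first 2 replicates of shScramble, shCHD4#1 and shCHD4#2 at each time, here called pseudogene-rich) and 0.223 to 0.283% in the other 16 (pseudogene-poor), which include all shFLI1 libraries. Mitochondrial ribosomal RNA took 22.1 to 22.5% of reads with shFLI1 and 16.2 to 18% with shScramble at 48 h; its part in the results below was not tested. Summed markers of other cell types at 48 h were low beside the Ewing list: 5 haematopoietic genes summed to 128 to 228 reads with shFLI1 and 44.8 to 54.6 with shScramble, and the 2 of 5 neuroblastoma genes in the table to 459 to 736 with shFLI1 and 224 to 475 with shScramble. Skeletal muscle genes (2 of 5 in the table) summed to 17.2 to 22.8 with shFLI1 and 2.03 to 16.5 with shScramble. With shCHD4#1 they summed to 87 to 126 and with shCHD4#2 to 48.4 to 142. The epithelial, endothelial and fibroblast sums of shFLI1 and shScramble overlapped. Fibroblast genes summed to 1116 to 2093 with shFLI1 and 1439 to 2407 with shScramble, and epithelial genes to 355 to 1347 and 425 to 1945. The part of all these markers in the results was not tested.

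In the 48 h shScramble cells the levels of these genes, as normalised reads per kb of exon, spanned a wide range, and several families had a dominant member. EPHA3, an EphA receptor on chromosome 3 (GRCh38, 89107524 to 89482134), was the most abundant at 2889 reads per kb, followed by SEMA5B at 2297, EPHB3 at 2143, EFNB1 at 2108 and EFNA5 at 2066. EPHB4 stood at 1148, PLXNB2 at 1102 and PLXNA1 at 814. UNC5C, UNC5D, SEMA5A, PLXNA4, EPHA10 and SLIT3 held the lowest 6 ranks, at most 0.427 reads per kb. In the 48 h shFLI1 cells EPHA3 still ranked first at 3105 reads per kb, while UNC5B stood at rank 3 with 1758, against rank 20 with 232.5 in shScramble cells, and SEMA3A at rank 8 with 868, against rank 28 with 120.2. SEMA5B stood at rank 12 with 601 in shFLI1 cells, against rank 2 in shScramble cells.

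**Figure D1:**
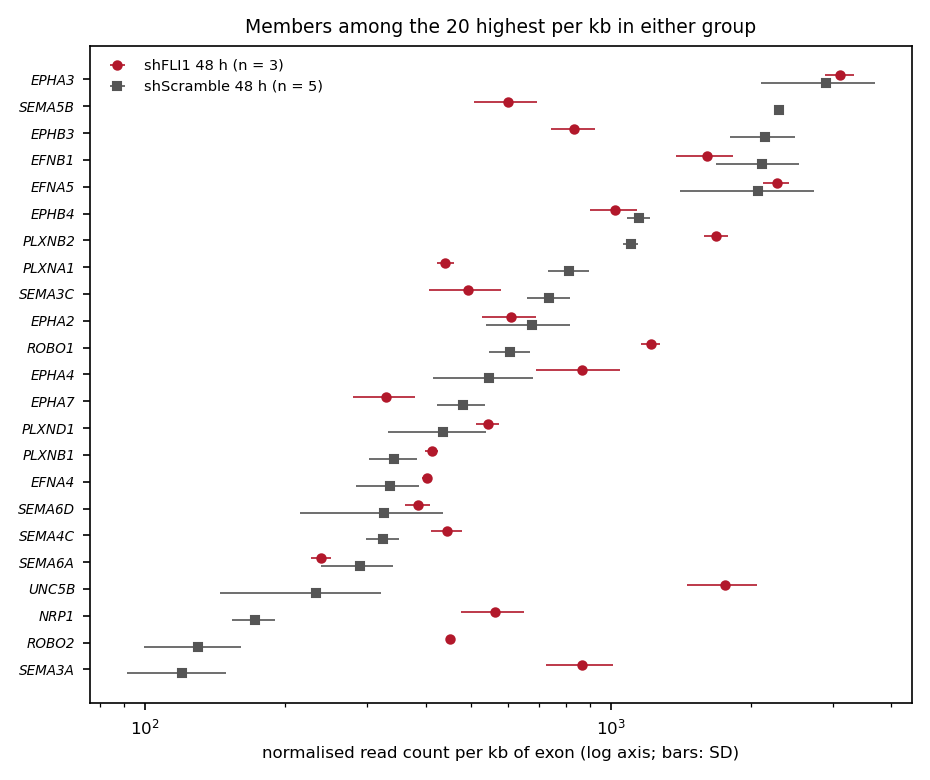
Mean normalised reads per kb of exon (log axis) at 48 h for the genes among the 20 highest in either group, with shFLI1 as red circles (n = 3), shScramble as grey squares (n = 5) and bars for the SD. UNC5B stands at 1758 with shFLI1 and 232.5 with shScramble, and SEMA5B at 601 with shFLI1 and 2297 with shScramble, whereas EPHA3 stands at 3105 with shFLI1 and 2889 with shScramble.

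EWS-FLI1 silencing changed guidance genes in both directions, with the largest changes upward. At 48 h, 29 of the 59 tested genes were higher and 12 lower with shFLI1 than with shScramble (limma, adjusted p under 0.05), which is 69.5% of them, where 63.9% of all 21025 genes tested passed the same test, 32.2% higher and 31.7% lower. The share called was therefore near that of all genes, and the members' median log2 fold change was 0.38, against 0.01 over all genes. A change of at least 2-fold was reached by 19 of those higher and 6 of those lower. The share of all genes that reached 2-fold was not computed, so this split is not set against a background. By role, 14 of 31 ligands were higher and 5 lower, and 15 of 28 receptors were higher and 7 lower. UNC5C, NTN4 and UNC5D passed the filter on low values only through the shFLI1 libraries, so these counts describe the tested genes and not all 67. After centring each library on its median, the median over all genes was -0.11 and 26 members were higher and 15 lower. In bulk RNA, fewer cells with a transcript and less of it per cell cannot be told apart.

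**Figure D2:**
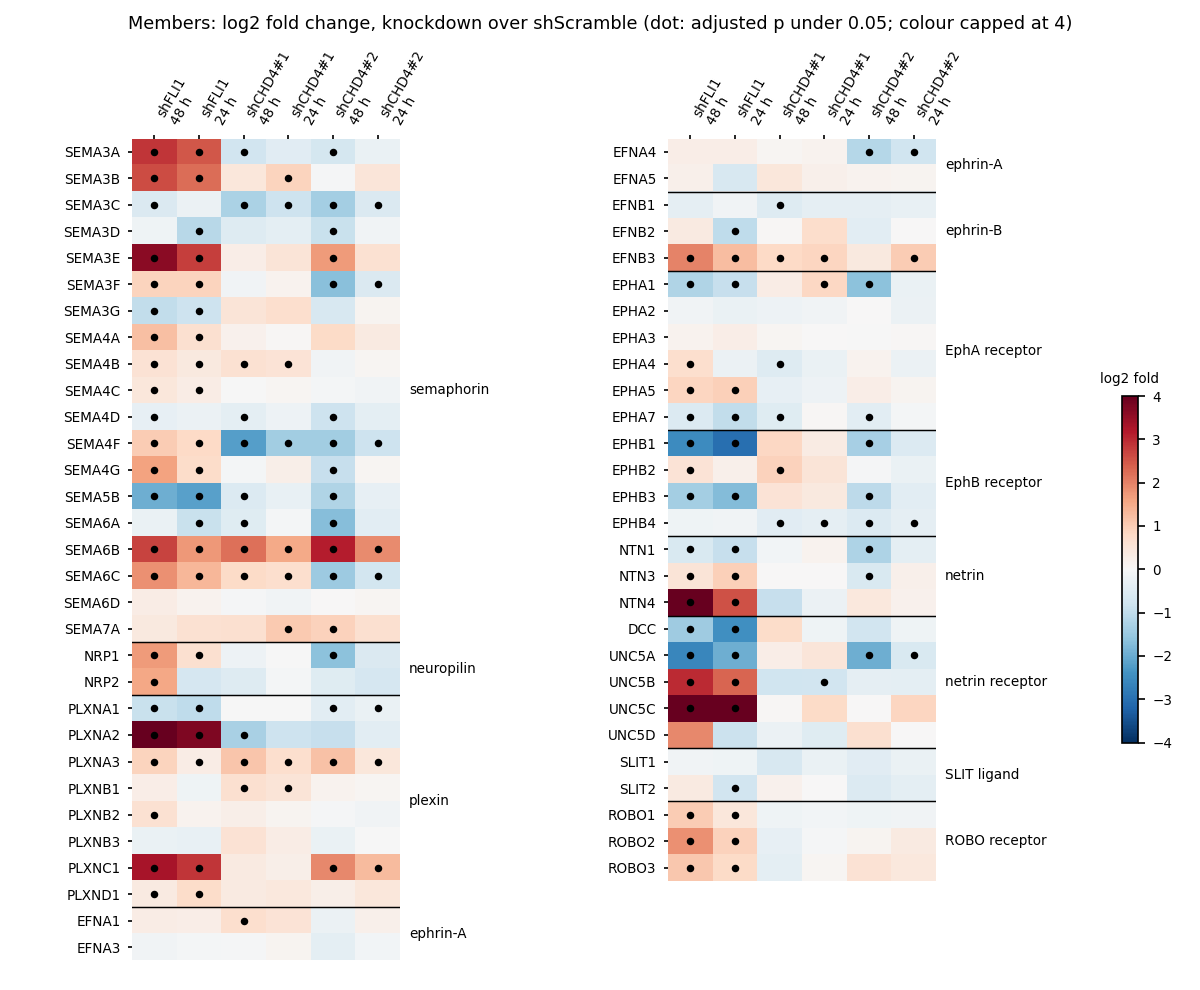
Log2 fold change of the 59 tested genes with each knockdown over shScramble at 48 and 24 h, by family, with a dot where the adjusted p was under 0.05 and the colour scale ending at 4. The shFLI1 columns carry 29 higher and 12 lower genes at 48 h, and the shCHD4#2 column at 48 h carries 5 higher and 21 lower ones.

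The upstream sequences of PLXNA2, NTN4 and SEMA3E, which rose, and of SEMA5B, which fell, are shown because these genes are among those with the largest shFLI1 changes at 48 h and the 250 bases before their RefSeq start lie outside the annotated gene. They are from RefSeq on GRCh38.p14, written 5′ to 3′ on the gene's strand, with matches to the motifs below in capitals.
PLXNA2 (chr1:208244385-208244634, minus strand): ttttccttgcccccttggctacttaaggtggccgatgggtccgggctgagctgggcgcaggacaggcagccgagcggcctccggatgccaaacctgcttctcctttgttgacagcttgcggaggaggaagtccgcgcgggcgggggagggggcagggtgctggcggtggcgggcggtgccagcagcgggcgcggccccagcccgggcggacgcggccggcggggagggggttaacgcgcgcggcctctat
NTN4 (chr12:95791156-95791405, minus strand): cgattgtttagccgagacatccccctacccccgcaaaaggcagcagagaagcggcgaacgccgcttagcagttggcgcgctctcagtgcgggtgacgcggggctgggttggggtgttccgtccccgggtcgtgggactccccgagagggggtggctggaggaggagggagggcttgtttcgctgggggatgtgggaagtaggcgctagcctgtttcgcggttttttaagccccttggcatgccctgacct
SEMA3E (chr7:83649140-83649389, minus strand): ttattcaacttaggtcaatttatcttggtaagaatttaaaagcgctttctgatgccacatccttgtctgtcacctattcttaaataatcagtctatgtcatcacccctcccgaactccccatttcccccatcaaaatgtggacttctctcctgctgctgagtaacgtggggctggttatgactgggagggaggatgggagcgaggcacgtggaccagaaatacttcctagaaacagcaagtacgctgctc
SEMA5B (chr3:123028606-123028855, minus strand): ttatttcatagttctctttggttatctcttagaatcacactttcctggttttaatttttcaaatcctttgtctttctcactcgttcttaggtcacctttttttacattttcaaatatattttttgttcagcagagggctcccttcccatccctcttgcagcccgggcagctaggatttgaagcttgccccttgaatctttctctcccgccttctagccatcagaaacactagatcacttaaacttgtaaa
Each was searched on both strands for GGAAGGAA, a pair of the GGAA repeats that EWS-FLI1 is known to bind, and for CCGGAA, a common core of ETS factor sites; the motifs share letters only where a GGAA core could belong to both. None of the 4 windows holds either motif, so no letter is in capitals, and this says only that these letters are not in these windows. Of the 57 members with an entry in the table, 4 (EFNA4, PLXNB1, SLIT3 and UNC5A) hold GGAAGGAA, where 3.06% of 35116 promoters do, and 3 (PLXNA1, PLXNB1 and SEMA4B) hold CCGGAA, where 14.5% of promoters do.

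Semaphorins were the largest of the families. At 48 h, 11 of 19 tested were higher with shFLI1 and 4 lower, 15 of the 41 members called. The largest rises were in SEMA3E and SEMA3A, secreted class 3 semaphorins, which bind neuropilins and plexins. The transmembrane SEMA6B (log2 2.70), described below, came between SEMA3A and SEMA3B in size. SEMA3E, which binds plexin D1 directly, had 222, 267 and 375 normalised reads with shFLI1, against 47.3, 30.9, 21.4, 15.9 and 10.9 with shScramble. SEMA3A, the repellent that collapses sensory growth cones, had 8448, 9279 and 6671 reads with shFLI1 and 1454, 1370.0, 1031, 917 and 861 with shScramble. SEMA3B, a class 3 semaphorin studied as a tumour suppressor, had 914, 926 and 1037 reads with shFLI1, against 230.4, 248, 106, 141 and 105 with shScramble. The groups did not overlap in any of these, and SEMA3A was the most abundant of them per kb. The log2 fold changes were 3.60 ± 0.42 for SEMA3E (SE, limma adjusted p = 3.57e-06), 2.87 ± 0.25 for SEMA3A (1.5e-07) and 2.62 ± 0.27 for SEMA3B (1.02e-06).

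SEMA3E, SEMA3A and SEMA3D lie next to each other on chromosome 7 (GRCh38, GENCODE 29), all on the minus strand, at 83363238 to 83649113, 83955777 to 84492724 and 84995553 to 85186855. SEMA3D, also a secreted semaphorin, was not called with its neighbours at this time: it had 859.8, 818 and 889.8 reads with shFLI1, against 1086, 607, 1154, 1047 and 1089 with shScramble at 48 h, and the groups overlapped (log2 -0.18 ± 0.32, limma adjusted p = 0.626). The overlap came from shScramble replicate 2 (607 reads) alone, and all shFLI1 values lay below the other shScramble values. Against the pseudogene-poor controls alone SEMA3D was at -0.36 (limma adjusted p = 0.364), also not called. At 24 h it fell, with 425, 460.1 and 712 reads with shFLI1 against 976 to 1353 with shScramble (-1.12 ± 0.18, limma adjusted p = 0.000169).

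Among the transmembrane semaphorins, SEMA6B and SEMA6C rose most. SEMA6B, a ligand of plexin A receptors, had 239, 277 and 204 reads with shFLI1, against 28.6, 30.9, 51.9, 37.3 and 33.8 with shScramble at 48 h. SEMA6C had 1807, 1709 and 1764 reads with shFLI1 and 429, 557, 484, 536 and 454 with shScramble. All shFLI1 libraries lay above all shScramble libraries in both genes, with log2 fold changes of 2.70 ± 0.29 (SEMA6B, limma adjusted p = 1.73e-06) and 1.84 ± 0.18 (SEMA6C, 5.25e-07). SEMA4G, SEMA4A, SEMA4F, SEMA3F, SEMA4B and SEMA4C were higher by log2 1.62, 1.21, 1.00, 0.88, 0.57 and 0.45. SEMA4G shares 1170 exonic bases with MRPL43 on the opposite strand, and the strand setting of the counting is not given in the sources used here, so its value is uncertain. Other tested members also have exonic bases under a gene on the opposite strand, which were EFNB2 (1313 bases), NRP1 (561), EPHA5 (535), EPHA4 (353), SEMA6A (268 and 58), DCC (190), NRP2 (147), SEMA3F (110), EPHA1 (82), UNC5C (78), EPHB4 (69), EPHB1 (64), EPHB2 (34), UNC5A (30) and PLXNA3 (11). The limit is not equal among them. Over all libraries MRPL43 averaged 1461 reads and SEMA4G 82.0, and ZYX, opposite EPHA1, averaged 4201 and EPHA1 69.4. The genes opposite UNC5C, EPHB1 and UNC5A averaged 0.446, 2.14 and 5.45. On their own strand PLXNB3 shares 1432 bases with SRPK3, SLIT1 216 with the read-through gene ARHGAP19-SLIT1 and SEMA3B 62 with a microRNA gene, so reads of these may be split whatever the strand setting. The call on SEMA3F ended without shFLI1 replicate 2 (log2 0.73, adjusted p = 0.0633).

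The semaphorin that fell most was the most abundant of the family. SEMA5B, a transmembrane semaphorin with thrombospondin repeats on chromosome 3 (122909082 to 123028605, minus strand), had 4617, 6041 and 4701 reads with shFLI1, against 19415, 19109, 19490.1, 19363 and 20441 with shScramble at 48 h. No library of either group came near the other group, and the log2 fold change was -1.94 ± 0.15 (limma adjusted p = 5.24e-08). SEMA3C, another secreted semaphorin, had 3086, 2558 and 3641 reads with shFLI1 and 4499, 5079.9, 4281, 4068 and 5174 with shScramble, log2 -0.59 (adjusted p = 0.0116). SEMA3G was lower at log2 -0.98 and SEMA4D, a ligand of plexin B1, at -0.33. The calls on SEMA3C and SEMA3G ended when 1 library was left out, shFLI1 replicate 2 for SEMA3C and shFLI1 replicate 1 for SEMA3G. That on SEMA4D ended without any 1 of 6 libraries (each shFLI1 library or shScramble replicate 1, 2 or 5) and with edgeR.

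The semaphorin receptors that passed the test were mostly higher. Of 8 tested plexins 5 were higher and 1 lower at 48 h, and both neuropilins were higher. PLXNA2, a plexin A receptor for class 3 and class 6 semaphorins on chromosome 1 (208022242 to 208244320, minus strand), had 2153, 2378 and 2533 reads with shFLI1, against 117, 97.9, 51.9, 73.7 and 45.8 with shScramble. PLXNC1, the receptor of SEMA7A, had 208, 187 and 156 reads with shFLI1, against 18.7, 14.4, 25.4, 13.1 and 18.5 with shScramble. In control cells PLXNA2 ranked 51 and PLXNC1 58 of the 67 genes per kb, and no libraries overlapped between the groups. The log2 fold changes were 5.00 ± 0.35 for PLXNA2 (limma adjusted p = 1.8e-08) and 3.30 ± 0.26 for PLXNC1 (5.87e-08); PLXNC1 shares 222 exonic bases with a gene on the opposite strand and 177 with CEP83 on the opposite strand.

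NRP1, the neuropilin through which SEMA3A binds and a co-receptor for VEGF, had 6625, 7403 and 5421 reads with shFLI1, against 1908, 2297, 1834, 1778 and 2090.4 with shScramble at 48 h (log2 1.7 ± 0.17, limma adjusted p = 6.74e-07). NRP2, the neuropilin preferred by SEMA3F, had 66.1, 89.7 and 270.0 reads with shFLI1 and 48.2, 28.9, 46.8, 32.7 and 44.7 with shScramble. The groups did not overlap for either, but for NRP2 shFLI1 replicate 3 stood well above the other 2. The NRP2 log2 fold change was 1.55 ± 0.36 (adjusted p = 0.00172) with this library and 0.95 (adjusted p = 0.00825) without it. PLXNA3, PLXNB2 and PLXND1 were higher by log2 0.88, 0.61 and 0.35. The PLXND1 call ended without any 1 of 6 libraries (each shFLI1 library or shScramble replicate 3, 4 or 5) and with edgeR, DESeq2 or median centring. PLXNA1, the most abundant plexin A, fell: it had 4805, 5039 and 4635 reads with shFLI1 and 7420.5, 9270.1, 9372, 9674 and 8817 with shScramble (log2 -0.88 ± 0.11, adjusted p = 5.96e-06).

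**Figure D3:**
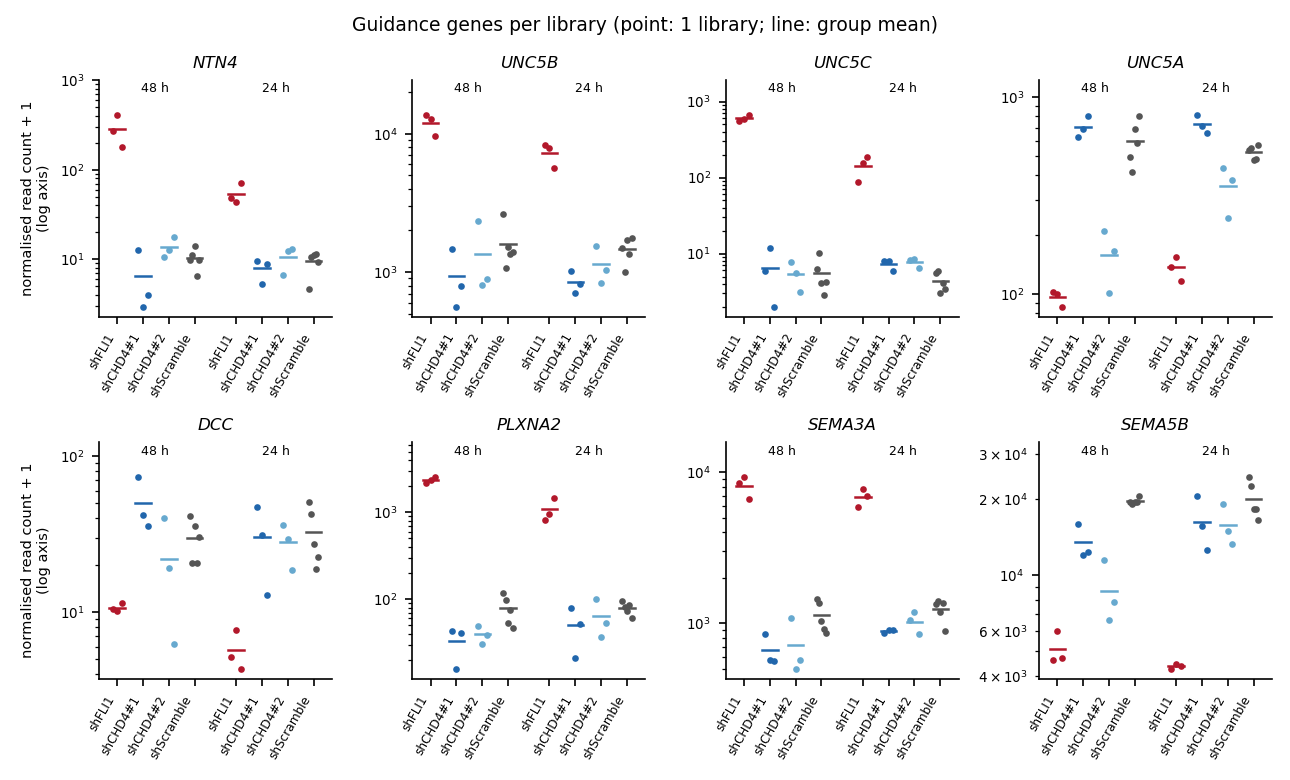
Normalised reads plus 1 (log axis) in each library for 8 guidance genes, by hairpin at 48 h (left of each panel) and 24 h (right), with a line at the group mean. At 48 h the UNC5C panel shows the shFLI1 libraries at 559.8 to 667 reads and the shScramble libraries at 1.87 to 9.28, and the UNC5A panel shows shFLI1 at 85.1 to 102 and shScramble at 414 to 797.

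Among the Eph receptors both directions occurred, with 2 of 6 tested EphA receptors higher and 2 lower, and 1 of 4 EphB receptors higher and 2 lower at 48 h. None of the 4 tested ephrin-A ligands passed the test at 48 h, with log2 fold changes of -0.15 to 0.31. EFNA3 and EFNA4 share exonic bases with a read-through transcript on their own strand, 853 and 189, so their reads may be split. EFNB3, a transmembrane ephrin-B ligand known as a midline barrier to corticospinal axons, was the 1 of 3 ephrin-B ligands that rose. It had 931, 812 and 744 reads with shFLI1 and 155, 231, 214, 252 and 205 with shScramble, with no overlap (log2 1.98 ± 0.21, limma adjusted p = 1.69e-06).

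EPHB1, an EphB receptor tyrosine kinase on chromosome 3 (134597801 to 135260467), had 152, 139 and 243 reads with shFLI1, against 1268, 738, 997, 815 and 1290.0 with shScramble at 48 h. EPHB3, the second most abundant Eph receptor after EPHA3 per kb in control cells, had 3799.6, 4167 and 3365 reads with shFLI1, against 7245, 10843, 9358, 9926 and 11192 with shScramble. Both fell with no overlap between groups, by log2 -2.52 ± 0.31 for EPHB1 (limma adjusted p = 5.63e-06) and -1.35 ± 0.21 for EPHB3 (5.74e-05). EPHA1 and EPHA7 were lower at log2 -1.21 and -0.55, and EPHA5, EPHA4 and EPHB2 were higher by 0.86, 0.67 and 0.56. The EPHB2 call ended without shFLI1 replicate 2. EPHB4, which pairs with ephrin-B2 in vessels, did not pass the test at -0.18 (adjusted p = 0.0889). EPHA3, the most abundant of all, had 22141, 20858 and 19178 reads with shFLI1 and 25899.9, 24064, 15539, 14472 and 16442 with shScramble, which overlap (0.14 ± 0.21, 95% interval -0.30 to 0.58, adjusted p = 0.556). Its 2 highest shScramble values were the pseudogene-rich libraries, and against the other 3 its log2 fold change was 0.42 (adjusted p = 0.0426).

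The netrin receptors diverged within the family. UNC5C, a repulsive netrin receptor on chromosome 4 (95162504 to 95549206, minus strand), had 559.8, 591 and 667 reads with shFLI1 at 48 h, against 5.36, 9.28, 3.05, 1.87 and 3.27 with shScramble. UNC5B, a netrin receptor also known from blood vessel guidance, had 13689, 12706 and 9692 reads with shFLI1, against 2628, 1076, 1520.0, 1340.2 and 1389 with shScramble. UNC5A, another repulsive netrin receptor, had 102, 98.9 and 85.1 reads with shFLI1, against 493, 414, 689, 581 and 797 with shScramble. UNC5C was nearly silent in control cells and UNC5B was not, and UNC5A went the other way, each without overlap. The log2 fold changes were 6.91 ± 0.53 for UNC5C (limma adjusted p = 4.65e-08), 2.97 ± 0.37 for UNC5B (5.85e-06) and -2.60 ± 0.23 for UNC5A (2.15e-07). UNC5C passed the filter on low values only through the shFLI1 libraries (mean 4.957 in the other 22). Its adjusted p thus belongs to a gene that its own rise brought into the test.

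DCC, the attractive netrin receptor on chromosome 18 (52340172 to 53535903), was low in all cells. It had 9.45, 9.20 and 10.4 reads with shFLI1 and 40.2, 19.6, 34.6, 19.6 and 29.4 with shScramble at 48 h, which do not overlap (log2 -1.42 ± 0.47, limma adjusted p = 0.0165). UNC5D had 3.54, 1.15 and 562 reads with shFLI1 and 3.05 to 4.67 with shScramble. In the authors' deposited table UNC5D was called higher, at log2 6.48. The high value was in shFLI1 replicate 3 alone, and the limma test here was not passed (log2 1.91 ± 1.25, adjusted p = 0.194). The same library was also the highest of the 3 for NRP2 and for the low gene SEMA5A, with 55.0 reads against 3.5 and 0 in the other 2.

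All 3 netrins passed the test at 48 h, but the calls on NTN1 and NTN3 ended when some single libraries were left out. NTN4, a netrin related to laminin beta chains and found in basement membranes, lies on chromosome 12 (95657807 to 95791152, minus strand). It had 270.5, 408 and 179.6 reads with shFLI1, against 8.93, 10.3, 13.2, 5.6 and 8.72 with shScramble, with no overlap (log2 4.76 ± 0.44, limma adjusted p = 3.19e-07). NTN4 too passed the filter on low values only through the shFLI1 libraries (mean 8.821 in the other 22), and the same limit holds for its adjusted p. NTN1, the classical attractant of commissural axons and a ligand of DCC and UNC5 receptors, had 379, 440.4 and 326 reads with shFLI1, against 616, 897, 443, 469 and 547 with shScramble (log2 -0.60, adjusted p = 0.0335). Its groups were close, and without the pseudogene-rich controls the change was -0.35 (adjusted p = 0.147); the call also ended without any 1 of 4 libraries (shFLI1 replicate 1 or 3 or shScramble replicate 1 or 2). NTN3 was higher by log2 0.51 with overlapping groups, and its call ended without any 1 of 7 of the 8 libraries, all but shScramble replicate 2, and with median centring or quantile normalisation.

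All 3 ROBO receptors rose at 48 h, and neither tested SLIT ligand passed the test. ROBO2 had 7398, 7643 and 7468 reads with shFLI1, against 2624, 2798, 1682, 1862 and 1850.5 with shScramble, and ROBO1, its neighbour on chromosome 3, had 13688, 13525 and 12513 with shFLI1, against 6804, 7622, 6477, 5807 and 6347 with shScramble. ROBO3, the divergent member that controls midline crossing, had 169, 183 and 143 reads with shFLI1, against 93.7, 85.6, 61.0, 70.0 and 76.3 with shScramble. No ROBO gene had overlapping groups, and the log2 fold changes were 1.82 ± 0.23, 1.01 ± 0.09 and 1.09 ± 0.24 (limma adjusted p = 6.25e-06 for ROBO2, 2.51e-07 for ROBO1 and 0.00102 for ROBO3). SLIT2 stood at log2 0.37 (adjusted p = 0.159) and SLIT1 at -0.14 (adjusted p = 0.613).

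At 24 h UNC5C and PLXNA2 again had the largest rises. With shFLI1, 25 members were higher and 14 lower, 66.1% of 59, where 46.7% of all genes passed the test, 24.2% higher and 22.5% lower; the members' median was 0.19. The largest 24 h changes were those of UNC5C (log2 5.00), PLXNA2 (3.74), PLXNC1 (2.87), SEMA3E (2.78), NTN4 (2.55), SEMA3A (2.49) and UNC5B (2.32) upward and EPHB1 (-3.01), DCC (-2.45), SEMA5B (-2.18), UNC5A (-1.95) and EPHB3 (-1.73) downward. Over both times 25 members were higher at each, 10 lower at each, 4 higher at 48 h alone, 2 lower at 48 h alone, 4 lower at 24 h alone and 14 called at neither. The shares of all genes called at both times or at 1 time alone were not computed, so these counts have no background. The 4 lower at 24 h alone were SEMA3D (-1.12), EFNB2 (-1.02), SEMA6A (-0.88) and SLIT2 (-0.76). The SLIT2 call ended without any 1 of 5 libraries (each shFLI1 library or shScramble replicate 1 or 2), and against the pseudogene-poor controls alone its value was -0.37 (limma adjusted p = 0.227). In all, 11 of the 39 calls at 24 h ended when some 1 library was left out, 10 of them without shFLI1 replicate 2. Both times come from the same cell line and hairpin, so this is not separate evidence.

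The difference between the times was itself tested. It was called in 11 members, all toward a higher fold change at 48 h, which is 18.6% of 59, where 16.7% of all genes were called, 7.22% in this direction and 9.44% in the other. NTN4 had 270.5, 408 and 179.6 reads at 48 h and 47.6, 42.4 and 69.6 at 24 h with shFLI1, while shScramble libraries held 5.6 to 13.2 and 3.71 to 10.5 (difference of log2 fold changes 2.21 ± 0.58, limma adjusted p = 0.00906). NTN4, and UNC5C below, passed the filter on low values only through the shFLI1 libraries. NRP2 had 66.1, 89.7 and 270.0 reads at 48 h and 31, 29 and 28.7 at 24 h with shFLI1 (2.21 ± 0.49, adjusted p = 0.00236, and 1.61 without shFLI1 replicate 3 of 48 h). NRP1 had 6625, 7403 and 5421 reads at 48 h and 2717, 3646 and 3112 at 24 h (1.06 ± 0.26, adjusted p = 0.0061). For the neuropilins the shFLI1 libraries of the 2 times did not overlap.

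EPHA4, a receptor that binds both ephrin classes, had 6499.5, 7904 and 5231 reads at 48 h and 3679.7, 3244 and 3028 at 24 h with shFLI1, with shScramble at 3308 to 5518 and 3412 to 5029.6 (0.91 ± 0.22, limma adjusted p = 0.00525). It was thus called higher at 48 h and not called at 24 h (log2 -0.24, adjusted p = 0.147). UNC5C differed by 1.91 (adjusted p = 0.0373), EFNB2 by 1.36 (0.0323), SLIT2 by 1.13 (0.0493), PLXNA3 by 0.59 (0.0353), ROBO1 by 0.56 (0.0159), PLXNB2 by 0.48 (0.00196) and PLXNB1 by 0.43 (0.0459). Under every alternative run, 4 of the 11 calls held, those of EPHA4, NRP1, NRP2 and PLXNB2, and 5 calls were left without shFLI1 replicate 1 of 24 h, 6 without shFLI1 replicate 3 of 48 h, and 7 without shFLI1 replicate 2 of 24 h, replicate 1 or 2 of 48 h, or shScramble replicate 3 of 48 h. In shScramble cells no member was called different between 48 and 24 h, and 0% of all genes were (limma). At unadjusted p under 0.05 there were 485 genes by limma, and edgeR and DESeq2 called 0 members. The lack of calls does not show that the levels of the 2 times were equal.

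**Figure D4:**
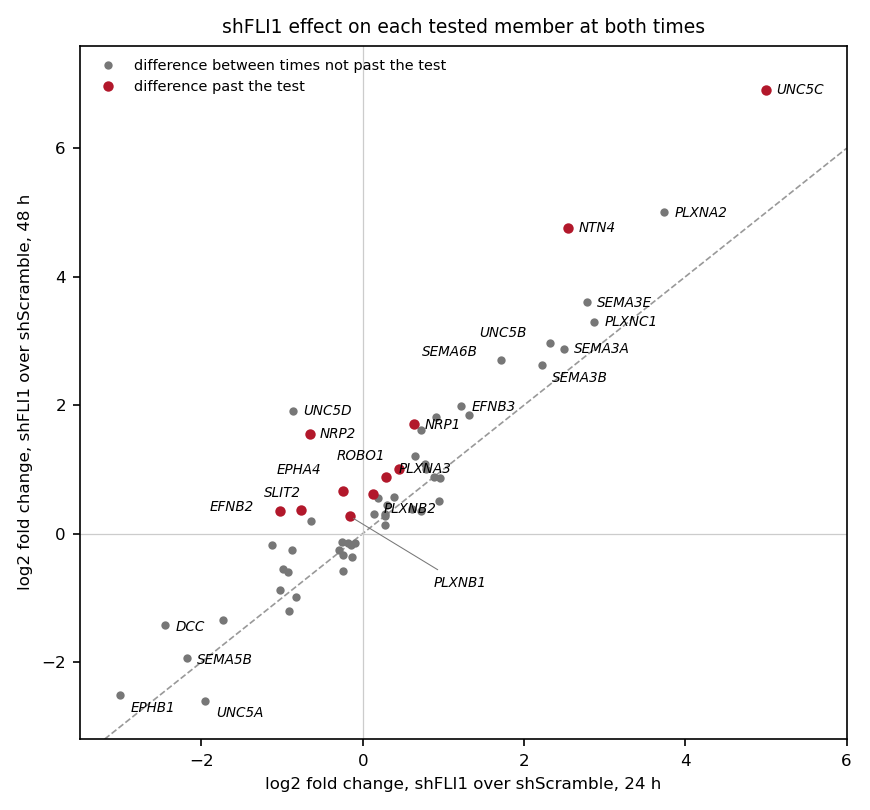
Log2 fold change with shFLI1 over shScramble at 48 h (vertical) against 24 h (horizontal) for each tested gene, with the diagonal dashed and red points where the difference between times passed the test. All 11 red points lie above the diagonal, NTN4 at 4.76 and 2.55 and NRP2 at 1.55 and -0.66.

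Because all shFLI1 libraries are of the pseudogene-poor kind, the controls of each kind were compared. Both pseudogene-rich shScramble libraries lay above the other 3 in 18 members at 48 h and in 24 at 24 h, and below them in 11 and 8. The same counts over all genes were not computed, so these are not a result particular to the guidance genes. EFNA5, a GPI-anchored ephrin, was the clearest abundant case, with 19862 and 20637 reads against 7153 to 9964 within the shScramble group at 24 h. With the pseudogene-poor shScramble libraries alone, all 29 higher and 10 of 12 lower calls of 48 h were kept, and those of NTN1 and SEMA4D were lost. EPHA3 (0.42), SEMA6D (0.61) and SLIT2 (0.57) were then called higher, and EFNB1 (-0.55) and SEMA6A (-0.42) lower. At 24 h 23 of 25 higher and 13 of 14 lower calls were kept, and those of PLXNA3 (0.27), SEMA4F (0.69) and SLIT2 (-0.37) were lost. EPHA3 (0.50) was then called higher and EPHA2 (-0.51) and NRP2 (-0.87) lower.

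Silencing of CHD4 changed fewer of the guidance genes than shFLI1 did by count. At 48 h shCHD4#1 gave 8 higher and 11 lower members of 59, 32.2%, where 28.4% of all genes were called (12.9% higher and 15.5% lower), and shCHD4#2 gave 5 higher and 21 lower, 44.1%, where 37.9% were called (17.5% higher and 20.3% lower). With quantile normalisation the split for shCHD4#1 was 12 higher and 7 lower. At 24 h the counts were 9 higher and 4 lower with shCHD4#1, where 11.3% of all genes were called (5.21% higher and 6.14% lower), and 4 higher and 8 lower with shCHD4#2, where 11.1% were called (4.05% higher and 7.01% lower). With quantile normalisation the 24 h split for shCHD4#2 was 5 higher and 5 lower. Both hairpins are compared with the same shScramble libraries, so their calls are not independent of each other. The shCHD4#1 counts were 10 at 48 h and 7 at 24 h without its replicate 2, and 11 and 8 without its replicate 3. The shCHD4#2 count at 24 h was 5 without its replicate 2. With the library kind as a term the 24 h counts were 21 with shCHD4#1 and 24 with shCHD4#2. Same-numbered libraries of shScramble and both CHD4 hairpins deviated together, and with the replicate number as a block the 24 h count was 16 with shCHD4#1 and 19 with shCHD4#2.

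At 48 h, 2 members were higher and 8 lower with both hairpins, where 5.0% and 6.24% of all genes were. SEMA6B had 127, 194 and 192 reads with shCHD4#1, 175, 501 and 377 with shCHD4#2 and 28.6, 30.9, 51.9, 37.3 and 33.8 with shScramble. PLXNA3, a plexin A receptor, had 2172, 3019 and 2857 reads with shCHD4#1, 1979, 3678 and 2990.2 with shCHD4#2 and 1174 to 1325 with shScramble. All CHD4 knockdown libraries lay above all shScramble libraries in both genes. SEMA6B rose by log2 2.20 ± 0.29 and 3.13 ± 0.29 (limma adjusted p = 0.000108 with shCHD4#1 and 3.4e-06 with shCHD4#2) and PLXNA3 by 1.10 ± 0.16 and 1.18 ± 0.16 (0.000174 and 6.14e-05).

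Of the genes lower with both hairpins, SEMA4F, a transmembrane semaphorin, had 39.0, 28.2 and 29.6 reads with shCHD4#1, 77.0, 50.6 and 47.4 with shCHD4#2 and 143, 161, 149, 157 and 144 with shScramble at 48 h. SEMA3C had 2231, 1588 and 1933 reads with shCHD4#1, 2627, 1398 and 1569.9 with shCHD4#2 and 4068 to 5174 with shScramble. Neither gene had a knockdown library within the control range, and shFLI1 moved SEMA4F the other way (log2 1.00 at 48 h). The log2 fold changes were -2.20 ± 0.18 and -1.39 ± 0.18 for SEMA4F (limma adjusted p = 2.65e-06 with shCHD4#1 and 4.88e-05 with shCHD4#2) and -1.28 and -1.36 for SEMA3C (0.000184 and 6.49e-05). SEMA5B (-0.55 and -1.21), SEMA6A (-0.47 and -1.71), EPHB4 (-0.45 and -0.55), EPHA7 (-0.49 and -0.41), SEMA4D (-0.40 and -0.83) and SEMA3A (-0.76 and -0.71) were lower with each. With shCHD4#1 the calls ended without any 1 of 7 libraries for SEMA4D, of 5 for SEMA6A, of 4 for SEMA3A and of 2 for SEMA5B, its own replicates 2 and 3 among them in each, and with shCHD4#2 without any 1 of 4 for SEMA3A (its replicates 2 and 3 and shScramble replicates 1 and 2). With the replicate block SEMA6A with shCHD4#1 was at -0.36 (limma adjusted p = 0.143), no longer called.

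At 24 h SEMA6B (log2 1.52 and 1.9), EFNB3 (0.87 and 1.01) and PLXNA3 (0.68 and 0.45) were higher with both hairpins, where 1.65% of all genes were, and SEMA4F (-1.39 and -0.83), SEMA3C (-0.82 and -0.59) and EPHB4 (-0.36 and -0.37) lower, where 1.46% were. EFNB3 had 306, 271 and 421 reads with shCHD4#1, 323, 351 and 407 with shCHD4#2 and 149 to 217 with shScramble. With shCHD4#2 the 24 h calls ended without any 1 of 6 libraries for SEMA4F and of 4 for SEMA3C, its replicates 2 and 3 among them in both, without its replicate 2 for EPHB4 and without its replicate 3 for PLXNA3; with shCHD4#1 that on EPHB4 ended without replicate 1 or 2. With the replicate block SEMA4F with shCHD4#2 was at -0.79 (limma adjusted p = 0.0548), not called, while SEMA3A (-0.56 with shCHD4#1 and -0.36 with shCHD4#2) and SEMA5B (-0.44 and -0.47) were called lower with both.

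**Figure D5:**
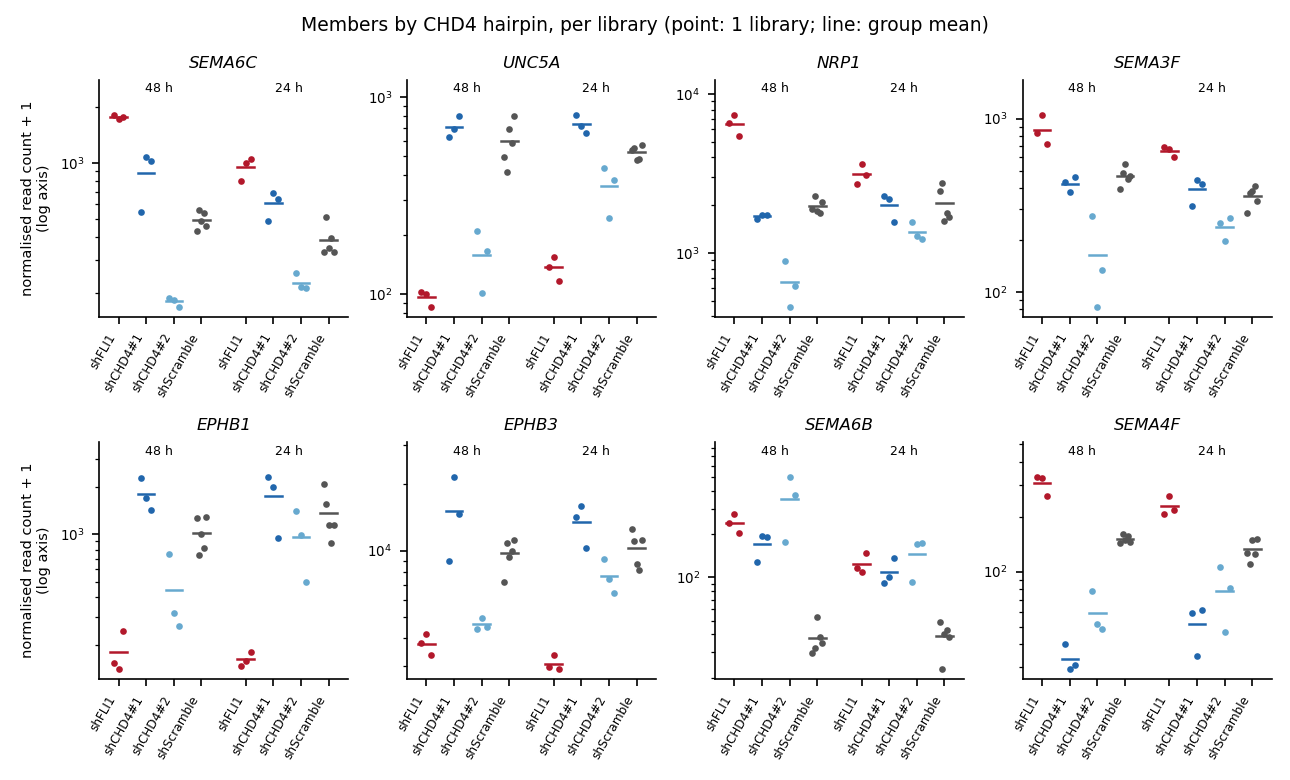
Normalised reads plus 1 (log axis) in each library for 8 genes described with the CHD4 hairpins, by hairpin at 48 h (left of each panel) and 24 h (right), with a line at the group mean. At 48 h SEMA6B lies above the shScramble range of 28.6 to 51.9 with both hairpins, SEMA4F below 143 to 161 with both, and SEMA6C at 545 to 1068 with shCHD4#1 and 166 to 186 with shCHD4#2.

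The hairpins against CHD4 differed from each other in many of these genes. At 48 h, 31 of the 59 differed (24 higher and 7 lower with shCHD4#1 than with shCHD4#2), 52.5%, where 37.9% of all genes did (19.2% higher and 18.6% lower). At 24 h 8 were higher and 1 lower, where 9.62% did (5.62% higher and 4% lower). With the library kind as a term the 24 h count was 17. Without replicate 2 of shCHD4#1 the counts were 19 at 48 h and 3 at 24 h, and without replicate 2 of shCHD4#2 the 48 h count was 20. SEMA6C moved in opposite directions: it had 545, 1068 and 1025 reads with shCHD4#1, 186, 182 and 166 with shCHD4#2 and 429 to 557 with shScramble at 48 h. The hairpins did not overlap, and their difference was log2 2.23 ± 0.20 (limma adjusted p = 5.31e-06), with 0.78 and -1.45 against shScramble. The 24 h values against shScramble were 0.66 and -0.74.

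UNC5A had 628, 685 and 803 reads with shCHD4#1, 207, 100.3 and 164 with shCHD4#2 and 414 to 797 with shScramble at 48 h (difference between hairpins 2.21 ± 0.26, limma adjusted p = 3.36e-05). NRP1 had 1650.2, 1748 and 1725 reads with shCHD4#1, 898, 458 and 618 with shCHD4#2 and 1778 to 2297 with shScramble (1.43 ± 0.19, adjusted p = 8.03e-05). EPHB1 had 2252, 1698 and 1427 reads with shCHD4#1, 752, 319 and 262 with shCHD4#2 and 738 to 1290.0 with shScramble (2.14 ± 0.34, adjusted p = 0.00033). In these genes the low group was shCHD4#2, and the shCHD4#1 libraries lay above all of its libraries. EPHA1 (1.93), EPHB3 (1.62), SEMA3F (1.54), EFNA4 (1.24), SEMA6A (1.24), NTN1 (1.12), EPHB2 (0.97), EFNA1 (0.88), SEMA4B (0.77) and SEMA5B (0.66) also differed, as did PLXNC1 the other way (-1.55). These 15 differences, of the 31 called, held in every alternative run.

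PLXNC1 had 34.9, 20.4 and 16.8 reads with shCHD4#1, 73.2, 64.1 and 70.5 with shCHD4#2 and 13.1 to 25.4 with shScramble at 48 h. It rose with shCHD4#2 alone of the CHD4 hairpins (log2 1.92 ± 0.26, limma adjusted p = 6.44e-05), and SEMA3E, at 63.7, 71.4 and 89.5 reads with shCHD4#2 and 10.9 to 47.3 with shScramble, rose by 1.69 (adjusted p = 0.00597). The fold change of shCHD4#2 differed between 48 and 24 h in 3 members, 5.1% of 59, where 0.989% of all genes did and 0.694% in this direction: UNC5A (-1.33, adjusted p = 0.0291), SEMA6A (-1.28, 0.0123) and NRP1 (-1.07, 0.0483). All 3 calls ended when single libraries were left out; the count was 0 without shCHD4#2 replicate 1 of 24 h or replicate 2 of 48 h and 12 without shCHD4#2 replicate 1 of 48 h. With the replicate block none was called (UNC5A -1.18, adjusted p = 0.124; SEMA6A -1.07, 0.0929; NRP1 -0.95, 0.155). For shCHD4#1 no member was called different between the times, and 0.00476% of all genes were (limma). At unadjusted p under 0.05 there were 881 genes by limma, and edgeR and DESeq2 called 0 members. This lack of calls does not show that the fold changes were equal.

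Set against the mean of the CHD4 hairpins, shFLI1 gave 30 higher and 7 lower members at 48 h, 62.7% of 59, where 65.7% of all genes were called (32.9% higher and 32.8% lower), and 22 higher and 15 lower at 24 h, where 52.9% were called (28% higher and 24.8% lower). The largest differences at 48 h were those of UNC5C (log2 6.88 ± 0.51), PLXNA2 (6.10 ± 0.34), NTN4 (5.01 ± 0.42), SEMA3A (3.61 ± 0.24) and UNC5B (3.55 ± 0.35), with limma adjusted p of 3.42e-08, 2.01e-09, 1.25e-07, 1.1e-08 and 6.71e-07. Of these, UNC5C and NTN4 passed the filter on low values only through the shFLI1 libraries, which limits their adjusted p. PLXNA2 had 41.5, 14.6 and 39.5 reads with shCHD4#1 and 48.5, 29.8 and 37.9 with shCHD4#2, against the 2153 to 2533 with shFLI1. UNC5C stayed at 0.988 to 10.7 reads in all CHD4 libraries of 48 h. NRP1 (2.63) and SEMA4F (2.79) were higher with shFLI1 than in the mean of the CHD4 hairpins, and EPHB1 (-2.27), UNC5A (-1.77), DCC (-1.41), EPHB3 (-1.11) and SEMA5B (-1.06) lower. The CHD4 hairpins differed from each other in NRP1, EPHB1, UNC5A, EPHB3 and SEMA5B, so their mean describes neither hairpin there. Against shScramble, UNC5A was at 0.28 with shCHD4#1 and -1.94 with shCHD4#2, EPHB1 at 0.82 and -1.32, and EPHB3 at 0.56 and -1.05. For UNC5A the shCHD4#2 libraries overlapped those of shFLI1. With the library kind as a term the difference for DCC was -0.91 (adjusted p = 0.1), no longer past the test. SEMA6B rose in all 3 comparisons with shScramble, and its difference between shFLI1 and the CHD4 hairpins was 0.04 (95% interval -0.57 to 0.64, adjusted p = 0.92).

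The other genes of the pathway were taken as lists. Of 28 other guidance cues and co-receptors, 23 were tested, and 13 were higher and 5 lower with shFLI1 at 48 h (median log2 0.70, against 0.01 over all genes), 78.3% of the 23, where 63.9% of all genes were called. BOC and CDON, co-receptors known from Hedgehog signalling and commissural axon guidance, were higher by log2 7.06 and 2.69, and NRCAM, an adhesion molecule of axons, by 3.71. Whether BOC or other list genes passed the filter on low values only through the shFLI1 libraries was not examined. The list counts and the BOC value carry that limit. LINGO1, a partner of the Nogo receptor, was lower, at -2.85. Of 54 tested intracellular transducers 23 were higher and 17 lower (median 0.13), 74.1% of them, with CHN2, a Rac GTPase-activating protein, at 3.11, FARP1, a guanine nucleotide exchange factor, at 2.39, the kinase ABL1 at 0.96 and CDK5R1, the activator of CDK5, at -1.65. Of 8 shedding and gamma-secretase genes, which cleave several of these receptors, 4 were higher and 1 lower, 62.5%, near the 63.9% of all genes, with APH1B at 2.27, NCSTN at 0.85 and PSEN2 at -1.19.

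With shCHD4#2 at 48 h none of the 23 other cues and co-receptors was higher and 13 were lower (median -0.67, against 0.01 over all genes), and 6 transducers were higher and 21 lower (median -0.28). These are 56.5% of the cues and co-receptors and 50% of the transducers, where 37.9% of all genes were called, 17.5% higher and 20.3% lower. PTK7, a planar polarity receptor, fell by 1.38 on the log2 scale, FLRT3, an adhesion ligand of UNC5 receptors, by 1.35, and RTN4R, the Nogo receptor, by 1.45, and PAK1, a kinase downstream of Rac, by 1.46. With shCHD4#1 the counts were 1 higher and 4 lower among cues and co-receptors and 8 higher and 13 lower among transducers, 21.7% and 38.9%, where 28.4% of all genes were called (12.9% higher and 15.5% lower), with FLRT3 at -1.25 and the adaptor NCK2 at -1.01. APH1B was higher with both hairpins, by 0.69 with shCHD4#1 and 1.91 with shCHD4#2.

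The 8 members below the filter were EFNA2, EPHA6, EPHA8, EPHA10, EPHB6, PLXNA4, SEMA5A and SLIT3. Fitted with no filter, PLXNA4, a plexin A receptor, had 18.9, 24.1 and 30.1 reads with shFLI1 and 0.933 to 6.18 with shScramble at 48 h (log2 2.82, limma adjusted p = 0.000198). EPHA8 had 6.66, 21.7 and 23.2 reads with shCHD4#2 and 0 to 5.45 with shScramble (log2 2.47, adjusted p = 0.00557), and 9.97, 6.81 and 8.89 with shCHD4#1 (1.7, adjusted p = 0.0534). EFNA2 (1.63, limma adjusted p = 0.0113) and EPHB6 (2.05, limma adjusted p = 0.0135) also passed the test with shFLI1 at 48 h. Per kb, EFNA2 averaged 24.2 ± 6.63 with shFLI1 and 7.72 ± 4.80 with shScramble (SD), and EPHB6 2.40 ± 1.10 and 0.659 ± 0.872. The shScramble libraries held 3.73 to 15.2 reads of EFNA2 and 0 to 11.6 of EPHB6. In the authors' deposited table neither was called, at log2 0.61 for EFNA2 and 0.48 for EPHB6. The genes below the filter hold few reads, so their log2 changes with a pseudocount of 1 are uncertain in size.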

How the data were processed

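RNA sequencing libraries (28, of SK-N-MC cells) were processed by the authors on GRCh38; per the submitters' processing notes the tools were DESeq2 1.34.0, featureCounts 1.6.0 (the read counter), HISAT2 2.1.0 (the aligner), SAMtools 1.7 and FastQC 0.11.7. The authors' deposited tables hold size-factor normalised read counts per gene, a signal that is not whole. The deposited comparison tables hold log2 fold changes, p-values and, in 1 table, a test score, all made by the authors; they serve only as an alternative. The table named for shFLI1 at 24 h holds shScramble at 48 h against 24 h by its values and was not used. The sources used here do not give the strand setting of the counting. Both deposited value tables hold all 28 libraries and were identical within 4.98e-07. Whole reads could be recovered for at least 99.9% of values (tolerance 0.02) and give depths of 46102707 to 64775441 reads a library.

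Here log2(value + 1) was fitted with limma 3.58.1 (R 4.3.3, trend) over the 4 groups of a time (all 8 groups for differences between times) for genes with a mean of at least 10, with Benjamini-Hochberg adjustment over 21025 genes; edgeR 4.0.16 and DESeq2 1.42.0 on recovered reads were alternatives. Calls are at adjusted p under 0.05, tests are two-sided and errors are SE of log2 or SD of reads. Replicates are the labels' biological replicates of 1 line; p-values measure the spread between these libraries. Deviations from the group means of same-numbered libraries correlated over 0.1 in 18 of 18 pairs among shCHD4#1, shCHD4#2 and shScramble (0.119 to 0.708). With shFLI1, 1 of 18 pairs did. Some differently numbered libraries of 1 kind also correlated. At 24 h shCHD4#1 replicate 3 had 0.5 and 0.393 with shScramble replicates 4 and 5, against 0.451 with replicate 3. These same-number correlations alone therefore do not separate pairing by number from library kind. The labels name no shared batch, and replicates 1 and 2 of the CHD4 and shScramble groups are the pseudogene-rich libraries. Genes named in full were, with shFLI1 at each time, up to 10 largest rises and falls past the test with all 3 values outside the shScramble range and a mean of at least 100 in the higher group; CHD4 members past the test in 1 direction with both hairpins; up to 8 time differences; and up to 4 genes per list. Others named are examples chosen after their values were seen. The members and lists were chosen with earlier results of these data known. Positions are from GENCODE 29.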

Additional observations from a re-analysis of the deposited data

Results flagged for a closer look

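In the 48 h shScramble group, 1 of the 5 libraries stood apart from the others for 5 genes. Chance alone gives this in about 1 in 20 groups, so with 59 tested genes some such cases would arise by chance. The 5 genes are therefore not shown to exceed chance. Replicate 2 was the lowest for SEMA3D (607 reads, others 1047 to 1154; gap 0.805 of the group's range), PLXNB3 (72.2 reads, others 121 to 140.2; 0.723) and EFNB1 (4543 reads, others 7196 to 8264; 0.713). Replicate 1 was the highest for UNC5B (2628 reads, others 1076 to 1520.0; 0.714), and replicate 5 for SEMA5B (20441 reads, others 19109 to 19490.1; 0.714), where the whole range is narrow.

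The shFLI1 effect differed between 48 and 24 h, by the test of the difference, for NTN4 (2.21 on the log2 scale), NRP2 (2.21), UNC5C (1.91), EFNB2 (1.36), SLIT2 (1.13), NRP1 (1.06), EPHA4 (0.91), PLXNA3 (0.59), ROBO1 (0.56), PLXNB2 (0.48) and PLXNB1 (0.43), all toward a higher fold change at 48 h. The shCHD4#2 effect differed for UNC5A (-1.33), SEMA6A (-1.28) and NRP1 (-1.07). NRP1 is thus in both lists, with opposite signs.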

How the results depend on the processing

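No called value changed sign under any alternative run. Calls that held in every alternative other than the authors' table numbered 33 of 41 for shFLI1 at 48 h and 28 of 39 at 24 h, 10 of 19 at 48 h and 7 of 13 at 24 h for shCHD4#1, and 20 of 26 at 48 h and 4 of 12 at 24 h for shCHD4#2. In the authors' deposited tables the members called at 48 h, of all 67, were 24 with shFLI1 (22 of the 59 tested here), 4 with shCHD4#1 (4) and 15 with shCHD4#2 (14), and at 24 h 0 with shCHD4#1 and 2 with shCHD4#2 (1). PLXNA4, SEMA5A and EPHA8 are the others. The 22 include UNC5D (authors' log2 6.48), which was not called here and was high in shFLI1 replicate 3 alone. With the replicate number as a block, the 24 h count for shCHD4#2 was 19, against 12 without it, and its count of time differences 0, against 3. The block moved no other count by over 1.5 times. Among comparisons without shFLI1 it ended 2 calls and added 5 at 24 h and ended 3 and added 2 at 48 h for shCHD4#1, ended 2 and added 9 at 24 h and ended 1 and added 2 at 48 h for shCHD4#2, and between the hairpins added 3 at 24 h and ended 3 at 48 h; their other calls did not change. With the library kind as a term the 24 h counts were 21 for shCHD4#1 (13 otherwise), 24 for shCHD4#2 and 17 between the hairpins (9 otherwise), and shCHD4#2 had 7 time differences. Fitting only the groups compared gave 6 for shCHD4#2 at 24 h and 0 time differences; DESeq2 on recovered reads gave 8 time differences for shCHD4#2. The cause was not tested. Leaving out 1 library in turn gave 36 to 40 members at 48 h and 29 to 40 at 24 h for shFLI1, 10 to 21 at 48 h and 7 to 14 at 24 h for shCHD4#1, 21 to 32 at 48 h and 5 to 12 at 24 h for shCHD4#2, 19 to 31 at 48 h and 3 to 8 at 24 h between the hairpins, 34 to 39 at 48 h and 32 to 38 at 24 h for shFLI1 against the CHD4 hairpins, 5 to 13 time differences for shFLI1 and 0 to 12 for shCHD4#2. Counts that moved by over 1.5 times include those without replicate 2 of shCHD4#1 (10 at 48 h, 7 at 24 h, and 3 between the hairpins at 24 h, against 9), without replicate 2 of shCHD4#2 (5 at 24 h), without shFLI1 replicate 1 of 24 h (5 time differences) and without shCHD4#2 replicate 1 of 48 h (12 time differences of that hairpin, against 3). Depth limits the genes below 10 reads, where 1 library can carry a mean.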
